A study of Drosophila melanogaster with 2 samples.

Results

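The Polycomb and trithorax group chromatin regulators described here are 37 protein-coding genes, listed by name, whose products hold developmental genes in the silent or the active state. A gene was said to have a peak when one of its transcript starts was the nearest protein-coding start to at least 1 summit, the base of highest signal in a peak. The peaks came from the stricter (conservative) of the lists that the authors made from both replicates. By this rule 34 of the 5024 peaks on the 6 chromosomes analysed belonged to 17 of the 37 genes, and the other 20 genes had none.

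The experiment was chromatin immunoprecipitation followed by sequencing in whole Drosophila melanogaster embryos aged 0 to 24 h, of the strain Awh-GFP, which expresses an eGFP fusion of Arrowhead (Awh), a transcription factor of the LIM-homeodomain class. Per the labels the fused protein was precipitated through its green fluorescent part, although another label field names Awh as the antibody target, and the chromatin was sonicated to fragments of 200 to 800 bp. All samples form 1 group of 2 biological replicates, with separate biosamples of the same donor strain and no record of sex. The possible controls named in the labels were not analysed here, so the members can be set only beside other genes and other peaks of the same list. What drives the expression of the fusion was not given in the sources used here, and in whole embryos many cells occupied weakly and few cells occupied strongly cannot be told apart. Peak lists hold no expression values, so the labelled stage could not be checked against marker genes.

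Polycomb group proteins work in several complexes. PRC2 methylates lysine 27 of histone H3, PRC1 ubiquitinates histone H2A and compacts chromatin, and PhoRC binds the DNA of Polycomb response elements directly. Trithorax group proteins include histone methyltransferases, the Brahma chromatin remodelling complex and sequence-specific factors such as the GAGA factor, and they keep genes active where Polycomb proteins would otherwise silence them. In fly embryos both groups are best known for maintaining the expression domains of the Hox genes after the early patterning factors have gone.

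Of the 11 member peaks that ranked within the first 500 of the list by signal, 6 are shown by sequence, so that the letters under the strongest summits can be read. Each sequence is 101 bases of the + strand of dm6, centred on the summit, and capitals mark letters that belong to any of the 9 short sites searched for, on either strand. They come from an intron of ph-p (chrX:2137301-2137401), the intergenic stretch before tara (chr3R:16222431-16222531), introns of osa (chr3R:17704349-17704449) and Trl (chr3L:14759473-14759573), the promoter of brm (chr3L:15982947-15983047) and an intron of kis (chr2L:223490-223590).
ph-p: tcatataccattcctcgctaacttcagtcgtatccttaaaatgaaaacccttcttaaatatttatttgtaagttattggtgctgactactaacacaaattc
tara: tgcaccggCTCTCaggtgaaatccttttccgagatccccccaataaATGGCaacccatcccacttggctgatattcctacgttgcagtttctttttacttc
osa: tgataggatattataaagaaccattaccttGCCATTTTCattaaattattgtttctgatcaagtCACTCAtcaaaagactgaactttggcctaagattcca
Trl: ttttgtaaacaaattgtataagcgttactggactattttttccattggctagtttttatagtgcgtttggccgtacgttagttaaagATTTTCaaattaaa
brm: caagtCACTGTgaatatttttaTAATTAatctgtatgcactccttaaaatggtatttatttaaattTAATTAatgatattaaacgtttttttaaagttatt
kis: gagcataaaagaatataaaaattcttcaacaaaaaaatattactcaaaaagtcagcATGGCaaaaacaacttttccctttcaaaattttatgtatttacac

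The strongest member peak of all, that of ph-p, holds none of the 9 sites in these bases. The brm sequence holds the homeodomain core TAATTA at 2 places and has a GC content of 18.8%, the lowest of the 6. In the tara sequence CTCTC is the reverse complement of GAGAG, the core that the GAGA factor reads, and ATGGC is that of GCCAT, the core of the Pho site. In osa the run of 9 capitals is GCCAT overlapping the reverse complement of GAAAAT, and in kis the capitals are again ATGGC.

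Peaks were found at 17 of the 37 members (45.9%, 95% Wilson interval 31.0 to 61.6%), against 20.6% of all 13945 protein-coding genes. A peak within 500 bp of a start, called a promoter peak here, was present at 9 members (24.3%) against 10.7% of all genes. At least 2 peaks were present at 9 members against 7.43% of all genes. Among the 100 strongest peaks of the list, 8 belonged to 7 members (18.9%), whereas 0.724% of all genes had a peak of that rank. The 7 were ph-p, tara, Chro, Psc, osa, Trl and brm. The members were chosen with earlier results of these data known. These shares and the interval therefore describe the chosen genes and carry no weight as a test.

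The members with a peak also had more chromosome in which a peak would be assigned to them. The stretch whose nearest protein-coding start is the gene's own, called its territory here, had a median of 14.9 kb for the 17 genes with a peak, 4.26 kb for the 20 without and 4.33 kb for all genes. With genes split into 4 equal groups by territory length, 10 of 11 members in the longest group (above 9.98 kb) had a peak against 39.3% of all genes. In the next group 3 of 11 did (20.3% of all genes), in the one after that 3 of 11 (14.0%), and in the shortest (below 2.17 kb) 1 of 4 (8.80%). The share was thus higher than that of all genes in each group, by the widest margin in the longest, but with so few members per group 1 gene moves a share by many percentage points. The part of territory length in the overall count was not tested.

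**Figure D1:**
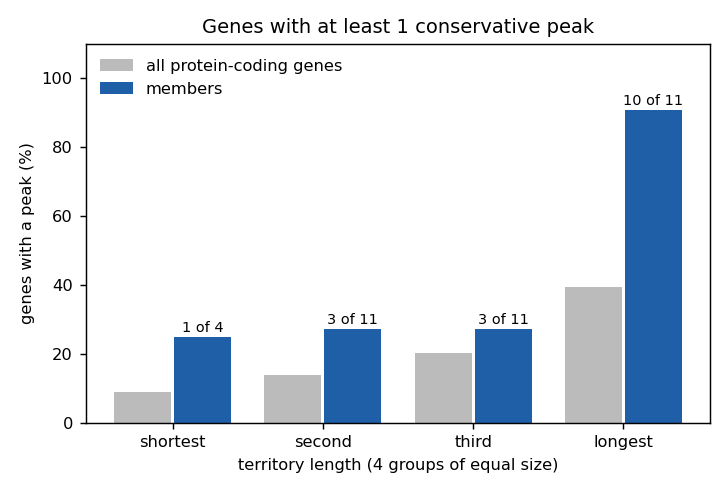
Percent of genes with at least 1 conservative peak (vertical axis) in 4 equal groups of territory length (horizontal axis), for all protein-coding genes (grey) and for the 37 members (blue, with counts above the bars). The member bar is above the grey bar in each group, and in the longest it stands for 10 of 11 genes.

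The authors' peak caller gave each peak a signal, which is used only to rank and describe peaks within a list. The 34 member peaks had signals from 59.9 to 1252 with a median of 125 (quartiles 93.2 and 327), beside a median of 102 for the whole list (quartiles 78.9 and 152). Of the 34, 23 lay above the list median. The median and both quartiles were thus above those of the list. At the upper end, 8 of 34 (23.5%) ranked within the first 100 peaks, which are 1.99% of the list.

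Polycomb repressive complex 1 gave the strongest peak and 10 peaks in all, at 4 of its 8 genes. This count and those of the other complexes below stand beside 20.6% of all protein-coding genes, and none was tested. The ph-p gene (chrX:2126210-2138371, minus strand) encodes a polyhomeotic protein, a PRC1 subunit with a SAM domain through which subunits join into chains. It had 5 peaks, the most of any member, spread over 4.17 kb at its 5' end. The strongest (chrX:2137209-2137485) had a signal of 1252 and ranked 4 in the list, with 722 in replicate 1 and 548 in replicate 2. Its summit lay in an intron between alternative ph-p starts, 496 bp upstream of the nearest one, just inside the promoter limit. The next (chrX:2137751-2138019, rank 82) had a signal of 556 (340 and 221 in replicates 1 and 2), and its summit was in the 5' UTR, 472 bp downstream of the outermost start. The remaining 3 ph-p peaks were far weaker, at 139 (78.1 and 64.2 in replicates 1 and 2), 130 (69.5 and 56.2) and 114 (56.0 and 51.2). Replicate 1 was higher at all 5.

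The neighbouring ph-d gene (chrX:2115727-2123286, minus strand) is the tandem copy of ph-p and encodes a closely related PRC1 subunit. It had 1 peak, 834 bp upstream of its start (chrX:2123955-2124284), with a signal of 155 (104 and 55.6 in replicates 1 and 2). Both values lie well below those of the 2 strong ph-p peaks in the same replicate. Because the pair arose by duplication, the member peaks were searched for second copies in the 6 chromosomes. Only the strongest ph-p peak had another match, 56 bp of its edge at 87.5% identity to chrX:2123642-2123696, upstream of ph-d. That match did not reach the summit and no conservative peak overlapped it. No match of any member peak reached 90% identity, and 33 of the 34 had none.

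Psc (chr2R:12965997-12980994, minus strand) encodes a RING finger protein of PRC1 that compacts nucleosome arrays. It had 3 peaks, none of them at a promoter. The strongest (chr2R:12985112-12985334, rank 52) was intergenic, 4233 bp upstream, with a signal of 659 (348 and 301 in replicates 1 and 2). The start of a noncoding gene, lncRNA:CR44339, lay closer to that summit, at 140 bp. The next (chr2R:12975505-12975674) was in a Psc intron, 5080 bp downstream of the start, with a signal of 339 (192 and 143 in replicates 1 and 2). The weakest, 2769 bp upstream, had a signal of 105 and was slightly higher in replicate 2 (53.5 against 59.1).

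Su(z)2 (chr2R:12996501-13007911, plus strand) is the paralogue of Psc, transcribed away from it on the far side of the shared upstream stretch. Its only peak, 67 bp downstream of its start in the 5' UTR (chr2R:12996403-12996732), had a signal of 93.1 (39.3 and 54.9 in replicates 1 and 2). This was the lowest ratio of replicate 1 to replicate 2 among the members, 0.715. In both paralogous pairs, then, 1 gene had several peaks with 1 or more above 500 and the other a single peak of 155 or less.

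**Figure D2:**
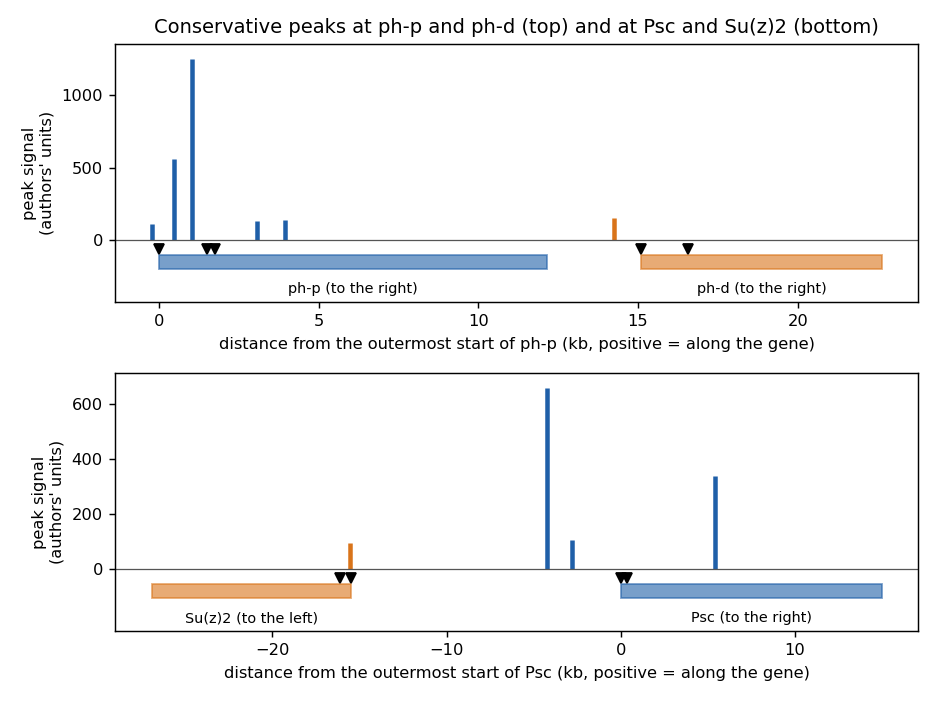
Signal of the conservative peaks (vertical bars, authors' units) along the paralogous pairs ph-p and ph-d (top) and Psc and Su(z)2 (bottom), with distance in kb from the outermost start of ph-p or Psc on the horizontal axis. Boxes are gene bodies, triangles are transcript starts, and colour gives the gene a peak was assigned to; the tallest bars are 1252 at ph-p and 659 upstream of Psc, against 155 at ph-d and 93.1 at Su(z)2.

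The other 4 genes of this group had no peak in the list. They are Pc, whose chromodomain binds trimethylated lysine 27, Sce, the E3 ligase of PRC1, Scm, a SAM domain protein that associates with PRC1, and Kdm2, which encodes a histone demethylase. The highest score of any candidate peak nearest to Pc was 280 and to Sce and Scm 257 and 200, where the list requires 830. Kdm2 is a different case and is described with the peaks absent from the list.

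PRC2, the methyltransferase complex, had peaks at 2 of 7 genes, both at promoters. E(z) (chr3L:10634575-10638130, minus strand) encodes its catalytic subunit. The peak of E(z) (chr3L:10637962-10638085, rank 398) lay 107 bp downstream of the start in an intron, with a signal of 273 (156 and 110 in replicates 1 and 2). Su(z)12 (chr3L:19918242-19923462, minus strand) encodes a core subunit that E(z) needs for activity. Its peak (chr3L:19923238-19923567) lay in the 5' UTR 59 bp downstream of the start, with a signal of 114 (65.2 and 45.6 in replicates 1 and 2). E(z) was in both replicates' own thresholded lists, and Su(z)12 only in that of replicate 1. The genes for the histone-binding subunits esc, escl and Caf1-55 and for the accessory subunits Jarid2 and Pcl had no peak, with best candidate scores of 240, 265, 239, 442 and 309 in that order.

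No peak was assigned to the genes of the 2 smaller Polycomb complexes. PhoRC consists of the DNA-binding proteins Pho or Phol, homologues of mammalian YY1, with Sfmbt. Candidate scores reached 182 at phol and 230 at Sfmbt, and pho had no candidate at all. The pho gene lies on chromosome 4, on which the list holds 6 peaks over 1.35 Mb and the ranked list 136 candidates. Calypso and Asx form the PR-DUB complex, which removes ubiquitin from histone H2A. Their best candidate scores were 95 and 41. The nearest conservative summit to calypso was 544 bp from its start, but it was closer to the shared starts of CG42837 and Lipt1, at 165 bp, and its signal was 192 (65.0 in replicate 1 and 112 in replicate 2).

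Among the histone methyltransferases of the trithorax group and their partners, 2 of 5 genes had peaks. The 3 peaks had signals from 59.9 to 124, beside a list median of 102. The trx gene (chr3R:14263358-14286903, minus strand) encodes a methyltransferase of lysine 4 of histone H3. Its 2 listed peaks, both intronic, were 8821 and 4192 bp downstream of the start. The first (chr3R:14277917-14278246) had a signal of 124 (69.2 and 48.5 in replicates 1 and 2), and the second 86.7, with a ratio of replicate 1 to replicate 2 of 1.07. A stronger trx peak, of 504, passed the score limit but is absent from the list and is described below. Utx (chr2L:10272325-10278811, minus strand), which encodes a lysine 27 demethylase, had the weakest member peak (chr2L:10276446-10276775, 550 bp downstream of a start), with a signal of 59.9. That peak had a score of 842, the member peak nearest the limit of 830, and overlapped a candidate in replicate 2 (31.7) but none in replicate 1. The genes ash1, which encodes a lysine 36 methyltransferase, ash2, a subunit shared by the lysine 4 methyltransferase complexes, and trr, a relative of trx, had no peak. Their best scores were 209, 91 and 194.

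The Brahma complex, an ATP-dependent remodeller of the SWI/SNF family, had strong peaks at 2 of 4 genes. The brm gene (chr3L:15970082-15982869, minus strand) encodes its ATPase. Its peak (chr3L:15982897-15983106, rank 62) lay 128 bp upstream of the start, with a signal of 611 (362 and 243 in replicates 1 and 2). This came from a territory of only 1.43 kb, the one member with a peak in the shortest group. The osa gene (chr3R:17687818-17718350, minus strand) encodes a DNA-binding subunit that defines the BAP form of the complex. Its 3 peaks were all intronic, and the strongest (chr3R:17704295-17704515, rank 53) lay 13951 bp downstream of the start and 704 bp from that of lncRNA:CR46035. It had a signal of 656 (344 and 313 in replicates 1 and 2), against 88.9 (52.1 and 39.3) and 68.9 (37.1 and 34.4) for the others.

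Both genes contain further peaks that the rule gave to other genes. Inside osa, a peak at chr3R:17700479-17700646 had a signal of 411 and ranked 146 (188 in replicate 1 and 218 in replicate 2), and another had 81.7, both nearest to the start of CG31249. Inside brm, a peak of 143 was nearest to the start of CG17029. The genes mor and Snr1, for core subunits of the complex, had no peak and best scores of 504 and 108. The mor candidate came closest to the limit among the members without a peak, Kdm2 apart.

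The remaining trithorax group genes and partners had peaks at 7 of 8 genes and 15 peaks, and kto was the exception. Of these, kis, Trl, tara, skd and Alh were in the longest territory group, in which 39.3% of all genes had a peak. The tara gene (chr3R:16225651-16260329, plus strand), taranis, was identified through its genetic interactions with Polycomb and trithorax group genes and also acts on the cell cycle. Its 4 peaks spanned 25.9 kb. The strongest (chr3R:16222356-16222624, rank 16) was intergenic, 3170 bp upstream, with a signal of 1023 (524 and 498 in replicates 1 and 2). The start of lncRNA:CR45643 was closer to it, at 914 bp. An intronic peak had a signal of 150 (77.9 and 65.5), and upstream peaks had 107 (49.8 and 65.9) and 88.1 (a ratio of 0.787). The 2 weakest tara peaks were higher in replicate 2, and the strongest was nearly equal.

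Chro (chr3L:22873702-22878984, minus strand) encodes a chromodomain protein of the interbands of polytene chromosomes. Its single peak (chr3L:22878770-22879029, rank 17) lay in the 5' UTR 85 bp downstream of the start, with a signal of 966 (556 and 406 in replicates 1 and 2). It was the strongest promoter peak among the trithorax group genes and partners.

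Trl (chr3L:14747929-14761049, minus strand) encodes the GAGA factor, which binds GAGAG repeats at promoters and Polycomb response elements. The strongest of its 3 peaks (chr3L:14759397-14759641, rank 57) was intronic, 1526 bp downstream of a start, with a signal of 642 (386 and 256 in replicates 1 and 2). A promoter peak 111 bp downstream of another start (chr3L:14757060-14757389) had a signal of 186 (118 and 67.4 in replicates 1 and 2), and lay in 5' UTR sequence annotated to both Trl and CG42507. A peak just outside the promoter limit, at 549 bp, had 91.0 (55.8 and 39.8). Replicate 1 was higher at all 3. None of the 3 had GAGAG within 100 bp of its summit.

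The kis gene (chr2L:210735-250823, minus strand) encodes a chromodomain helicase related to mammalian CHD7. The stronger of its peaks (chr2L:223468-223619, rank 351) was in an intron 1578 bp upstream of the nearest start and 21 bp from that of lncRNA:CR44222. Its signal was 289, with 195 in replicate 1 and 87.7 in replicate 2, a ratio of 2.22, the highest among the members. The other kis peak had a signal of 88.8 and the opposite order, 34.0 in replicate 1 and 47.3 in replicate 2.

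Of the Mediator kinase module, skd (chr3L:20992814-21027434, minus strand), the Med13 gene, had 2 intronic peaks, whereas kto, the Med12 gene, had none and a best candidate score of 219. The skd signals were 127 (65.3 in replicate 1 and 57.9 in replicate 2), 16387 bp downstream of the start, and 93.4 (45.8 and 49.9). A further peak of 95.5 inside skd was nearest to the start of CG12984, and one of 117 lay 411 bp from a skd start but 70 bp from that of Pdss2. The products of skd and kto act as a pair, but only skd had a peak by this rule.

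Alh (chr3R:7094596-7124185, minus strand), the fly homologue of AF10, had a promoter peak 98 bp upstream of its start (chr3R:7124118-7124447) with a signal of 105 (49.8 and 56.5 in replicates 1 and 2). Its intronic peak had 71.8 (51.7 and 29.2). The lid gene, named Kdm5 in the annotation (chr2L:5989400-5999501, minus strand), encodes a demethylase of trimethylated lysine 4. It had 1 peak (chr2L:5997641-5997970), 42 bp upstream of an internal start in an intron, with a signal of 95.3 and nearly equal values of 43.7 and 42.9. Both promoter peaks were close to the list median of 102.

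By side, peaks were assigned to 6 of 20 Polycomb genes and 11 of 17 trithorax genes and partners, against 20.6% of all protein-coding genes. The Polycomb side had 12 peaks with a median signal of 147, of which 6 were at promoters, and the trithorax side 22 with a median of 106, of which 5 were. The longest territory group, in which 39.3% of all genes had a peak, held ph-d, Psc, Su(z)2 and pho of the Polycomb side. Of the trithorax side it held trx, osa, kis, Trl, tara, skd and Alh. Among the 12 Polycomb peaks, ph-p alone had 5, of which 3 were at promoters. No test was made between the sides.

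**Figure D3:**
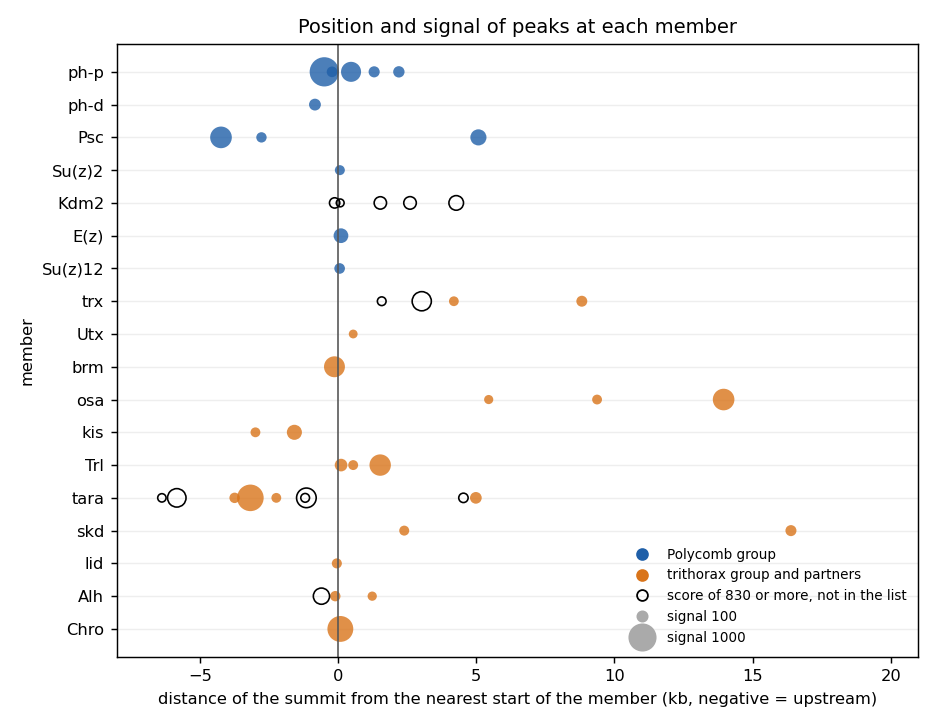
Distance of each summit from the nearest start of its member (horizontal axis, kb, negative values upstream), with 1 line per member and the area of each circle growing with the signal. Filled circles are the 34 peaks of the list at Polycomb genes (blue) and at trithorax genes and partners (orange), and open circles are the 13 peaks at tara, trx, Alh and Kdm2 that had a score of 830 or more but are absent from the list. The largest filled circles are ph-p at 1252, tara at 1023 and Chro at 966.

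The position of the member peaks was close to that of the whole list. Promoter peaks made up 11 of 34 (32.4%, Wilson interval 19.1 to 49.2%) against 1608 of 5024 (32.0%). Outside promoters, introns held 17 of the 34 against 43.7% of the list, and intergenic sequence 6 (17.6%) against 21.5%. No member summit lay in a coding exon or a 3' UTR, places that hold 2.33% and 1.17% of all summits. The median distance to the nearest protein-coding start was 1552 bp against 1620 bp. For 10 of the 34 peaks, among them the strongest of tara, Psc, osa and kis, the start of a noncoding gene was nearer than that of the member. Promoter peaks of members had a median signal of 186 and the others 124, beside 109 and 99.0 in the whole list.

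The replicates differed in how strongly they showed the member peaks. Replicate values are signals of the strongest overlapping peak in each replicate's own ranked list. The authors' scaling of these lists is not recorded, so ratios are descriptive. Of the 33 member peaks with a candidate in both replicates, 26 were higher in replicate 1, whereas in the whole list 2597 of 4979 were. The median log2 ratio of replicate 1 to replicate 2 was 0.28 (SD 0.40 over 33 peaks), beside 0.02 (SD 0.49 over 4979 peaks). Strong peaks leaned to replicate 1 in general, since 82 of the 100 strongest in the list were higher there (median log2 ratio 0.21), as were all 8 member peaks among them (median 0.43).

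Across the 33 peaks the replicate signals had a Spearman's rho of 0.853, beside 0.648 for the list. These points share 2 libraries and a list thresholded on the replicates' ranks, so both values are descriptions. Of the 34 peaks, 20 (58.8%, Wilson interval 42.2 to 73.6%) also overlapped a peak of each replicate's own thresholded list, against 42.8% of all peaks. A further 6 did so in replicate 1 only, 5 in replicate 2 only and 3 in neither, namely the weaker trx peak, the weakest osa peak and that of Utx.

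**Figure D4:**
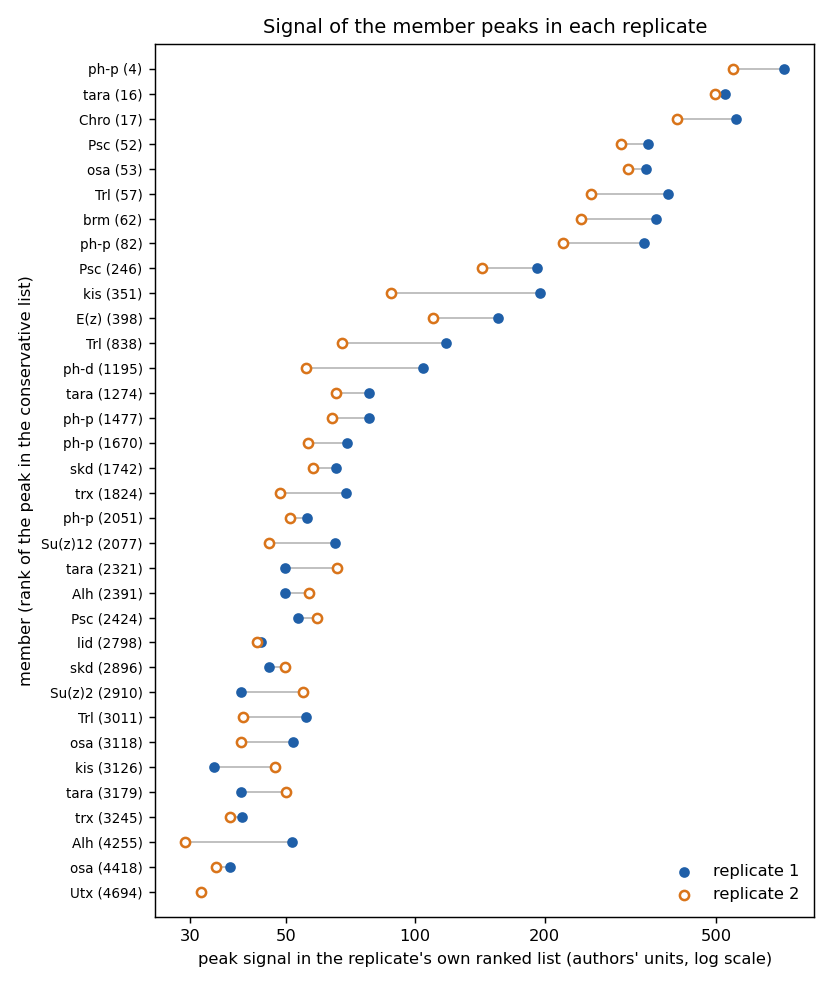
Signal of each of the 34 member peaks in replicate 1 (filled blue) and replicate 2 (open orange), on a logarithmic horizontal axis in the authors' units, with peaks ordered by their rank in the conservative list (in brackets). All 11 peaks ranked within 500 are higher in replicate 1, as are 343 of the first 500 peaks of the whole list. The widest gap is at kis (195 against 87.7), and Utx has a value in replicate 2 only.

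The call of a peak at a gene was kept for most members when the lists of single replicates were used. In the list of replicate 1 alone 14 members had a peak (14.8% of all genes did), and in that of replicate 2 alone 16 did (16.5%). Of the 17 members, 13 had one in both, and none lacked one in both. At Utx, however, the peak in the list of replicate 2 was a different one, since its conservative peak overlapped none there. In the broader list made from both replicates, 16 members had a peak (22.8% of all genes), the missing one being Utx. None of the 20 members without a conservative peak gained one in any of these 3 lists, which come from the same 2 libraries. For Kdm2 this is no separate check, since its peaks that passed the score limit overlap none in either single list.

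Of those 20, 19 had at least 1 candidate in the ranked list, 88 candidates in all. Their best scores ran from 41 at Asx to 504 at mor, with Kdm2 apart at 1000. The candidate of highest signal, which for some genes was not the one of highest score, had a median signal of 37.1 over the 19 genes, and the weakest member peak of the list had 59.9. None of the 20 had a conservative summit within 500 bp of a start, and calypso alone had one within 1000 bp. The depth of the libraries is unknown, so an absent peak means that the list holds none, not that the protein is absent from the gene. At Kdm2, peaks passed the score limit and are still absent from the list.

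**Figure D5:**
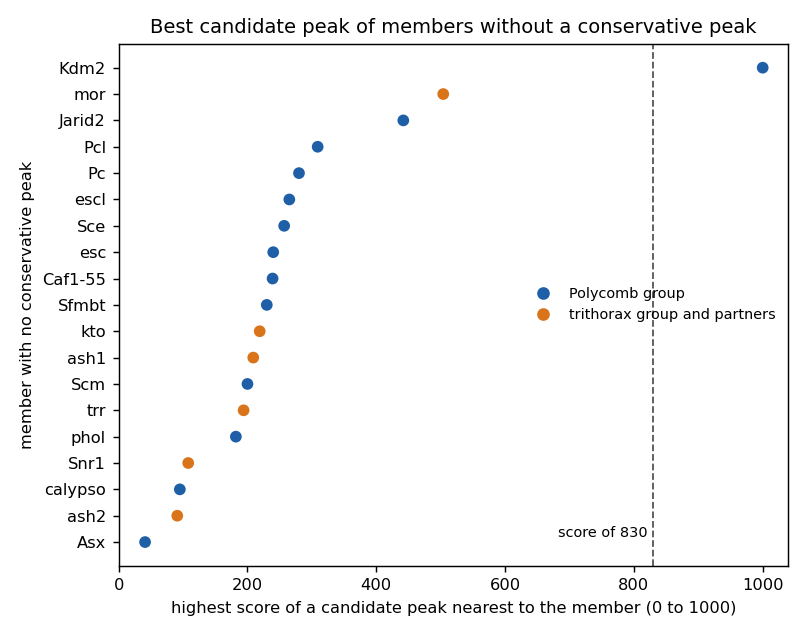
Highest score (horizontal axis, 0 to 1000) of any candidate peak nearest to each of 19 members without a conservative peak, in blue for Polycomb genes and in orange for trithorax genes and partners, with the limit of 830 as a dashed line. Kdm2 at 1000 is the only member past the line, mor follows at 504, and pho is not drawn because it had no candidate.

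Some peaks passed the score limit in the ranked list but are absent from the thresholded one. Members held 13 of these 120 peaks, beside 34 of the 5024 peaks of the list. The 120 lay at 68 of the 13945 protein-coding genes, among them 4 of the 37 members. Kdm2 (chr3R:9052495-9063245, plus strand) had 5, with signals of 267 (164 in replicate 1 and 101 in replicate 2), 182 (125 and 65.0), 176 (73.1 and 91.4), 103 and 33.9. The last 2 overlap each other at the promoter and share their replicate values of 41.3 and 66.0. All 5 lay within 4.73 kb, and they are the only passing peaks of Kdm2. Counting them would give 18 members with a peak.

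At tara the 5 absent peaks included 2 strong ones, of 531 (chr3R:16224406-16224610, 256 in replicate 1 and 262 in replicate 2) and 463 (chr3R:16236865-16237061, 297 and 181), and 3 of 75.2, 57.5 and 47.1. With them tara has 9 passing peaks. For trx the absent peaks had signals of 504 (chr3R:14283779-14283978, 242 and 264) and 56.3, against 124 for its strongest listed peak. Alh had 1 of 343 (chr3R:7108970-7109093, 174 and 177), again above both of its listed peaks. The 13 had a median signal of 176 and the 120 one of 95.8. None of the 13 overlapped a peak of either replicate's own thresholded list, and 119 of all 120 did not. Per the deposited description of the files, the thresholded lists were derived from 1 more file than the ranked lists, and no source used here says why these peaks are absent.

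Short sites within 100 bp of the summits were counted on both strands, beside their share in all 5024 peaks in windows of the same length. TAATTA, which LIM-homeodomain proteins bind, lay at 9 of the 34 member summits (26.5%, Wilson interval 14.6 to 43.1%) against 19.5%. The 9 were at Psc, brm, E(z), ph-d, ph-p, Alh at both of its peaks, Trl and osa. GAGAG lay at 12 (35.3%, 21.5 to 52.1%) against 26.5%, and GCCAT at 8 (23.5%, 12.4 to 40.0%) against 30.6%. Each of these intervals includes the share of the whole list.

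Sites of promoter-bound factors were counted the same way. TATCGATA, the DREF site, was at 0 of 34 member summits against 1.69% of the list. A count of 0 allows a share of up to 8.82% taken as 3 counts of 34, and up to 10.2% by the Wilson interval. CGATA, read by BEAF-32 and contained in the DREF site, was at 9 (26.5%) against 24.1%. GGTCACA, read by M1BP, was at 2 (5.88%) against 2.05%, and TGAGTG, the Zeste core, at 4 (11.8%) against 503 of 5024 peaks. GAAAAT, with no named factor, was at 10 (29.4%) against 28.6%. ACAGTG, added with its frequency at these peaks already known, was at 11 (32.4%, interval 19.1 to 49.2%) against 15.9%, and among the printed sequences it stands in that of brm. It was the one site whose interval lay above the share of the list, but it was chosen with these peaks known, so this carries no weight as a test. A match describes the letters and not a bound factor.

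The promoters of the 37 genes, taken as 250 bp before to 50 bp after the outermost start, were searched as well. GCCAT was in 20 of 37 (54.1%) against 41.2% of all 13945 promoters, CGATA in 23 (62.2%) against 47.4%, and GGTCACA in 8 (21.6%) against 9.70%. TAATTA was in 11 (29.7%) against 20.4%, GAGAG in 9 (24.3%) against 29.7%, TATCGATA in 5 (13.5%) against 9.36%, TGAGTG in 3 (8.11%) against 11.9%, GAAAAT in 13 (35.1%) against 42.0% and ACAGTG in 7 (18.9%) against 13.9%. None of these differences was tested.

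Of 46 other genes that act with Polycomb or trithorax proteins, 14 (30.4%) had a peak against 20.6% of all protein-coding genes, with 36 peaks and a median signal of 83.8. Their territories had a median of 6.80 kb, beside 5.54 kb for the members and 4.33 kb for all genes, and 5 of the 36 peaks were at promoters. The Polycomb side held 9 of its 18 genes and the trithorax side 5 of 28, the reverse of the order among the members, and neither difference was tested. The count depended on both replicates, since 9 had a peak in the list of replicate 1 alone and 11 in that of replicate 2 alone.

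The 5 with the strongest peaks were led by RYBP, whose protein binds ubiquitinated H2A and PRC1, at a signal of 577 (283 and 292 in replicates 1 and 2), 7636 bp from its start. It was followed by corto, a partner of both groups, with 331 (142 and 191), in intergenic sequence 32903 bp from its start. The territory of corto, of 49.3 kb, held 8 peaks. Next was nej, the CBP acetyltransferase gene, with 268 (138 and 138). Act5C, an actin that is also a subunit of the Brahma complex, had 258 (120 and 142), and Dsp1, an HMG-box protein that takes part in Polycomb recruitment, 136 (75.4 and 66.5). RYBP alone of these was comparable in signal to the strong peaks of brm, osa and Trl, and none of the 5 peaks was at a promoter.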

How the data were processed

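Peaks were analysed from 2 biological replicates of 1 group. The authors' deposited lists, on dm6 per the labels, give each peak a signal from their peak caller, a score of up to 1000 and a −log10 value of the irreproducible discovery rate, on which a score of 830 stands for a rate of 0.0100. The aligner, the peak caller and the scaling of the signal were not given in the sources used here, and no list gives read totals, so depth is unknown. In the series-wide ranked lists, 16 columns of unnamed per-input values were not used.

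Summits of the 5024 of 5026 conservative peaks on chromosomes 2L, 2R, 3L, 3R, 4 and X were assigned to the nearest start of a protein-coding transcript (Ensembl release 115, BDGP6.54), ties going to every gene at that start. Of the 37 symbols, 35 matched by name and 2 (calypso and lid) through RefSeq synonyms. Replicate values are the strongest peak of each replicate's ranked list that overlaps by at least 1 bp. Intervals (95%, Wilson) cover the number of regions or genes only. Python 3.11.15, pandas 2.3.3, numpy 2.4.6, scipy 1.17.1 and blastn 2.17.0 were used, and the assignment, overlap, merging and site search were tested on simulated data. No statistical test between groups was possible with 1 group.

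The members and gene lists were chosen with earlier results of these data known. All 37 members are named, each with its strongest peak, and of the other related genes the 5 with the strongest peak. Genes outside these lists are named only where a peak inside or next to a member was assigned to them, where a noncoding start lay nearer to a member's peak, or where a summit lay in their UTR. Sequences were read from the reference genome for members' peaks of rank up to 400 with at most 30 bases of UTR, leaving out chromosome arm 2R.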

Additional observations from a re-analysis of the deposited data

Results flagged for a closer look

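Signal at members outside the list used was present in 13 peaks that had a score of 830 or more in the ranked list and are absent from the thresholded one. At tara they had signals of 531, 463, 75.2, 57.5 and 47.1. At trx they had 504 and 56.3, and at Alh 343. At Kdm2 they had 267, 182, 176, 103 and 33.9, and this gene had no peak in the list. No control sample was analysed here against which to set these values, and no source used here gives the reason for their absence.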

How the results depend on the processing

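The count of 17 members ranged from 14 to 16 with the list of a single replicate, and the 34 peaks numbered 30 in each. The median signal of 125 was 73.7 without replicate 2 and 61.7 without replicate 1, on the scale of the single lists, and 186 in the stronger 50% of peaks, a set chosen by signal. The 14 related genes became 9 without replicate 2 and 11 without replicate 1, 7 in the stronger 50% and 9 when starts of any gene type were allowed. The share of member peaks in both replicates' own lists, 58.8%, was 87.0% in the stronger 50%. GAGAG, at 35.3% of member summits within 100 bp, was at 17.6% within 50 bp and 64.7% within 200 bp, GCCAT went from 23.5% to 47.1% within 200 bp, and ACAGTG, a site added after seeing the data, from 32.4% to 11.8% within 50 bp. Wider windows hold more of any site, by construction. Under the other alternatives the median signal lay between 114 and 139. The median log2 replicate ratio of 0.28 lay between 0.23 with the absent passing peaks added and 0.43 with starts of any gene type (0.40 in the stronger 50%), positive in each. The other counts stayed within 1.5 times and the other shares within the Wilson interval. No paired analysis was possible because there is a single group. The unknown depth limits any statement on members without a peak, and the replicates share a strain, so their spread covers no other strain or control.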
